A study of Homo sapiens with 27 samples.

Results

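The chromosome 19 microRNA cluster (C19MC) was followed through 27 small RNA libraries of 2 human cell lines. Its members were taken by name as every mature arm of miR-498, miR-512, miR-515 to miR-527, miR-1283 and miR-1323 listed in any of the deposited count tables, which gave 67 arms of the 2276 miRNAs listed in all. Of these, 30 were 5p arms and 37 were 3p arms or arms named without a side. All 67 were listed for H1, an established line of human embryonic stem cells (hESCs), and 53 for K562, an established line from chronic myelogenous leukemia.

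The libraries fell into 9 groups of 3. The 5 hESC groups were WT, USB1 mutants, USB1 mutants_iUSB1-WT without doxycycline (-Dox) and with it (+Dox), and USB1 mutants_shPAPD5. Every hESC group but WT carried the USB1 mutation, which was made with Cas9 in H1 and kept as manually picked colonies. The iUSB1-WT transgene (wild-type USB1 that doxycycline switches on) and the PAPD5 hairpins were placed at the AAVS1 locus. The 4 K562 groups were Control, USB1 KO, Control_shPARN and USB1 KO_shPARN, and the knockout cells came from clones grown from single cells. USB1 is an RNA 3′ exonuclease known for trimming U6, PAPD5 adds adenosines to RNA 3′ ends and PARN removes them. The comparisons ask whether C19MC levels differ when USB1 is mutated, restored or deleted, or when PAPD5 or PARN is knocked down. The labels name no hairpin control and no WT group with doxycycline, so effects of the agents themselves cannot be told apart from those of their targets. Differences that came with picking, cloning or further engineering of a line cannot be told apart from those of the mutation, knockout or PAPD5 knockdown. Whether a group's 3 libraries were separate cultures is not given in the labels, so p-values measure the spread between libraries only.

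C19MC is specific to primates. It is transcribed from the paternal chromosome as a long array of repeated miRNA hairpins, is best known for its very high level in the placenta, and is also expressed in pluripotent stem cells. Each hairpin is cut into a 5p and a 3p arm, and an arm loaded into Argonaute finds its targets mainly through its seed, bases 2 to 8. The C19MC seed AAGUGCU is also that of some arms of 2 stem cell clusters. These are named here miR-302 (miR-302a to miR-302d and miR-367) and miR-371 (miR-371a, miR-371b, miR-372 and miR-373). Another C19MC seed, AAAGUGC, is that of the miR-17 family, which is known for promoting proliferation.

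In RefSeq on GRCh38.p14, the 44 hairpin genes of the cluster lay on the plus strand of chr19:53666692-53762418, a span of 95727 bases, and 64 of the 67 arms had a mature sequence there. These 64 arms had 54 distinct sequences and 34 distinct seeds, and 14 arms were encoded by more than 1 hairpin. The sequences below are mature miRNAs, 5′ to 3′, with the seed in capitals. The first are the arms that carried most of the C19MC counts in hESCs, in order of level.

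miR-516b-5p: aUCUGGAGguaagaagcacuuu
miR-512-3p: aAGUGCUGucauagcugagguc
miR-1323: uCAAAACUgaggggcauuuucu
miR-520a-3p: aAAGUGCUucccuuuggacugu
miR-517a-3p and miR-517b-3p: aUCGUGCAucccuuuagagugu
miR-520c-3p: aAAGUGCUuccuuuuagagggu
miR-526b-5p: cUCUUGAGggaagcacuuucugu
miR-518b: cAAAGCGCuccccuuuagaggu
miR-520g-3p: aCAAAGUGcuucccuuuagagugu
miR-1283: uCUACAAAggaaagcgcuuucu

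The arm miR-516b-5p is encoded at chr19:53725457-53725478 and chr19:53736860-53736881, and miR-512-3p at chr19:53666729-53666750 and chr19:53669213-53669234, at the 5′ end of the array. The arms of miR-1323 (chr19:53671978-53671999) and miR-520a-3p (chr19:53690933-53690954) each have 1 locus. The shared sequence of miR-517a-3p and miR-517b-3p is at chr19:53712321-53712342 and chr19:53721118-53721139. Short motifs recur over the arms of the array, and only some of the 10 sequences hold them. GGAAGC or GCACUUUC marks many 5p arms, and CUUCC or UUUAGAG marks many 3p arms. On the mature strand, GGAAGC was in 22 of 30 5p arms, 0 of 34 3p or unsided arms and 0.52% of 2306 other human mature miRNAs. UUUAGAG was in 19 of the 34 and in 0.043% of the others, and AAGUGC in 15 of the 34 and in 1.041% of the others. These motifs overlap the seeds in part, and AAGUGC is the core of the seeds compared next.

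The next set opens with arms that passed a test in hESCs or cannot be told apart by sequence. It closes with miR-519d-3p and with relatives outside the cluster that share a seed with a member.

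miR-516a-5p: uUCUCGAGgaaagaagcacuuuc
miR-518d-5p, miR-520c-5p and miR-526a-5p: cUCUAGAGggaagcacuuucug
miR-518e-5p, miR-519a-5p, miR-519b-5p, miR-519c-5p, miR-522-5p and miR-523-5p: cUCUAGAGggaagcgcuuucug
miR-520d-3p: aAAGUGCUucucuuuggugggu
miR-519d-3p: cAAAGUGCcucccuuuagagug
miR-302b-3p, outside C19MC: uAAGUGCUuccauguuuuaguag
miR-372-3p, outside C19MC: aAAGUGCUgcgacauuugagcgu
miR-17-5p, outside C19MC: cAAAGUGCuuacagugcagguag

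The arm of miR-516a-5p is encoded at chr19:53756756-53756778 and chr19:53761148-53761170, the 3′ end of the array, and miR-520d-3p at chr19:53720149-53720170. The miR-372-3p arm lies beyond that end, at chr19:53787931-53787953, in the miR-371 cluster. The printed sequences show that miR-520a-3p, miR-520c-3p and miR-520d-3p match miR-302b-3p and miR-372-3p over the whole seed, whereas miR-519d-3p matches miR-17-5p.

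The libraries matched their lines by marker miRNAs. Unless stated otherwise, a level is given in CPM, counts relative to a library total that TMM scaling within the line has adjusted, and arms were compared with each other without a length term because mature miRNAs are of nearly one length. The 9 pluripotency markers of the miR-302 and miR-371 clusters summed to 181200 to 380902 CPM in hESC libraries. In K562 those listed summed to 0.485 to 741 CPM, whereas 7 erythroid or myeloid markers summed to 7428 to 10605 CPM there and to 92.0 to 283 CPM in hESCs. The miR-302 cluster gave 766 and 813 CPM of total counts in Control K562 libraries 1 and 2 and 0.189 CPM in Control library 3, whose table lists all 5 of its marker arms. The other K562 tables list 0 to 2 of the 5, with at most 7 counts in a library. The 7 epithelial markers summed to 4159 to 8548 CPM in hESCs and to 48.4 to 176 CPM in K562. The 9 fibroblast markers, which include miR-10a-5p, summed to 219 to 724 CPM in hESCs and to 9022 to 21743 CPM in K562, where miR-10a-5p alone had a median of 10144 CPM. The total of miRNA counts per library was 12258450 to 35734485 for hESCs and 1530929 to 13183152 for K562. C19MC took 37518 to 116996 of these counts in hESCs but only 55 to 865 in K562, the fewest in USB1 KO library 3.

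C19MC was a small part of the hESC miRNA pool. Its share of all miRNA counts was 0.391% ± 0.0702 in WT (mean ± SD, n = 3 libraries here and below), 0.341% ± 0.0463 in USB1 mutants, 0.357% ± 0.0148 in -Dox, 0.281% ± 0.0217 in +Dox and 0.375% ± 0.0146 in shPAPD5 cells. On the scaled level, WT libraries 1 to 3 held 4442, 3636 and 3686 CPM summed over the arms. The USB1 mutant libraries held 3758, 3521 and 3501 CPM, and the -Dox libraries 3351, 3739 and 3482 CPM. The +Dox libraries held 2926, 2644 and 2819 CPM, and the shPAPD5 libraries 3241, 3729 and 3736 CPM. All 3 +Dox libraries lay below the other 12 hESC libraries, and the other 4 groups overlapped. Per total count, +Dox library 1 (3056 CPM) lay just above USB1 mutant library 3 (3029 CPM) and below the remaining ones. By group mean the order was WT with 3921 ± 452, USB1 mutants with 3594 ± 143, shPAPD5 with 3569 ± 284, -Dox with 3524 ± 197 and +Dox with 2796 ± 142 CPM, and the first 4 did not differ beyond their spread. In bulk RNA, fewer cells with C19MC and less C19MC RNA per cell cannot be told apart.

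**Figure D1:**
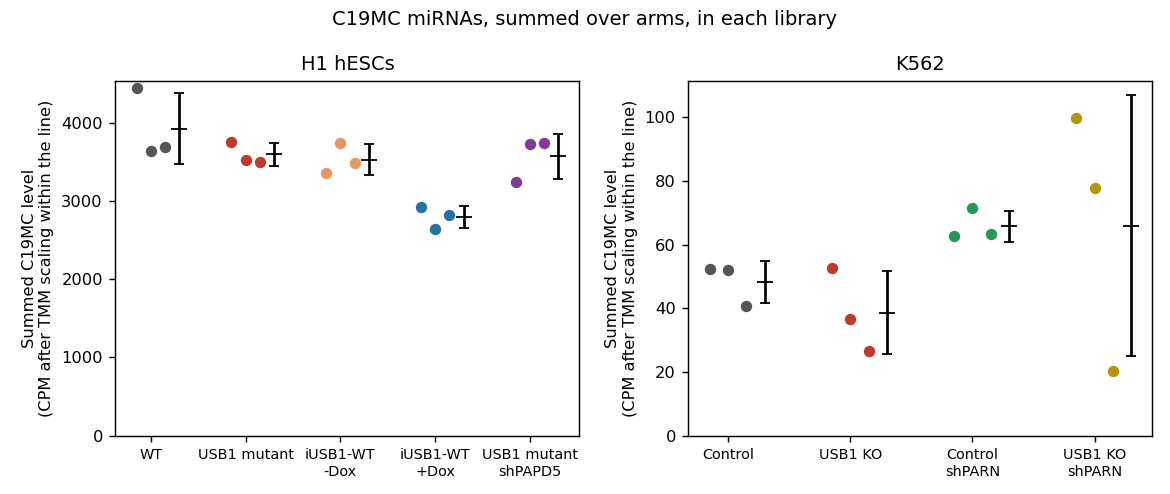
Summed C19MC level of each library (points) with the group mean and SD of 3 libraries (bars), in CPM after TMM scaling within the line, for 5 hESC groups (left) and 4 K562 groups (right, on its own scale). The 3 +Dox libraries lie between 2644 and 2926 CPM, below every other hESC library, while the K562 sums run from 20.3 to 99.8 CPM.

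A few arms made up most of the cluster's output. By mean level over the 15 hESC libraries, 8 arms were above 100 CPM, 31 between 10 and 100, 16 between 1 and 10 and 12 below 1 CPM. The 12 most abundant arms held 82.97% of C19MC counts, and the 33 least abundant held 3.937%. The leading pair, miR-516b-5p and miR-512-3p, held 48.97% together, with a range of 34.8 to 53.8% over the hESC libraries. Thus a cluster of 44 hairpins contributed mainly the products of a handful.

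The most abundant arm, miR-516b-5p, read 1208, 1083 and 1211 CPM in the WT libraries. It read 741, 939 and 1125 CPM in USB1 mutants, 924, 1157 and 1039 CPM in -Dox, 737, 781 and 904 CPM in +Dox and 1045, 1234 and 1239 CPM in shPAPD5 cells. Its +Dox libraries lay below all -Dox, WT and shPAPD5 libraries and overlapped the USB1 mutants.

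The next arm, miR-512-3p, read 758, 755 and 770.4 CPM in WT, 568, 767 and 704 CPM in USB1 mutants and 599, 775 and 663 CPM in -Dox. It read 677, 566 and 548 CPM in +Dox and 675, 634 and 746 CPM in shPAPD5 cells. WT was the tightest group (761 ± 8.36 CPM), and the other groups overlapped each other.

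The arm of miR-1323 read 432, 197 and 193 CPM in WT, so that WT library 1 stood far above its partners. In the other groups it read 169 to 199.9 CPM in USB1 mutants, 243 to 312 CPM in -Dox, 161 to 195 CPM in +Dox and 140.4 to 248 CPM in shPAPD5 cells. Here -Dox lay above +Dox in every library.

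The arm miR-520a-3p, which has the miR-302 seed, read 151, 152 and 128 CPM in WT, 201, 197 and 167 CPM in USB1 mutants and 126, 187 and 181 CPM in -Dox. It read 146, 124.5 and 145 CPM in +Dox and 155.5, 152 and 126 CPM in shPAPD5 cells. The mutant libraries lay above all WT, +Dox and shPAPD5 libraries, which overlapped each other.

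**Figure D2:**
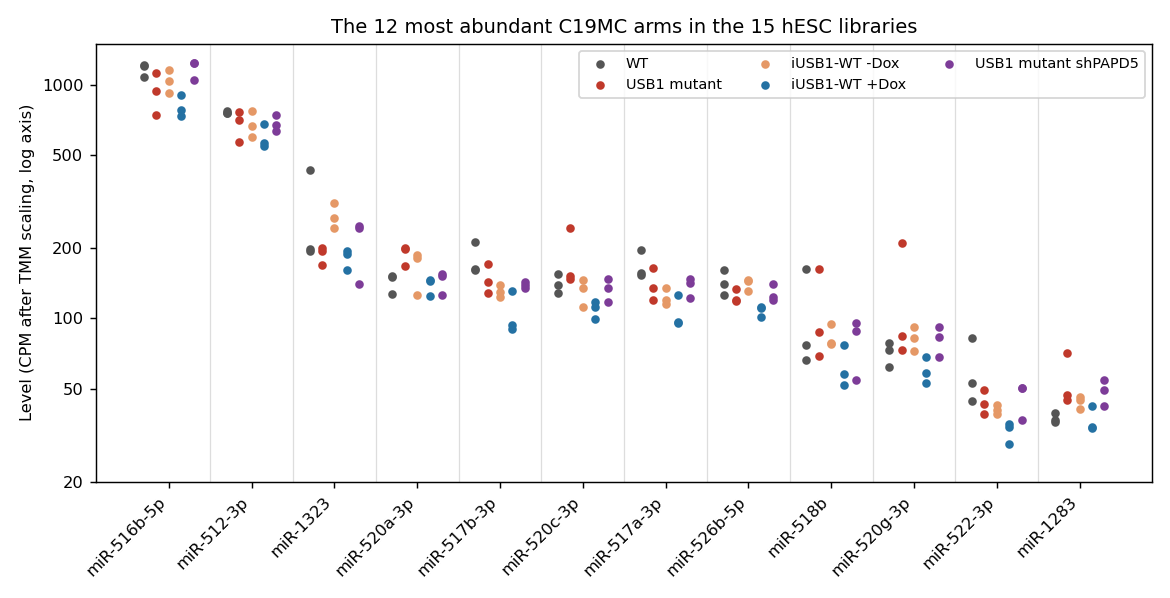
Level of the 12 most abundant C19MC arms in each of the 15 hESC libraries (1 point per library, colored by group; CPM after TMM scaling, log axis). The levels fall from 737 to 1239 CPM for miR-516b-5p to below 100 CPM for miR-522-3p and miR-1283, and single libraries stand apart for miR-1323 (WT library 1, 432 CPM) and miR-520g-3p (USB1 mutant library 1, 211 CPM).

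Single libraries deviated from their group across much of the cluster. Among 55 arms with a mean of at least 1 CPM, the median deviation from the group mean was 0.22 on the log2 scale in WT library 1 and 0.24 in USB1 mutant library 1, and it ran from -0.17 to 0.13 in the other 13 hESC libraries. In WT library 1 47 arms were above their group mean, and in USB1 mutant library 1 45 were. Other libraries were as one-sided with smaller deviations, with 49 arms below in +Dox library 2, 46 below in WT library 3, 45 above in shPAPD5 library 2 and 44 above in +Dox library 1. The 2 libraries with the largest deviations shared some high arms but not others, such as miR-1323, which stood apart only in WT library 1. The arm of miR-498-5p read 35.7 CPM in WT library 1 against 13.8 and 12.4 CPM in libraries 2 and 3, and 29.6 CPM in USB1 mutant library 1 against 11.9 and 11.2 CPM. Likewise, miR-518b read 162 CPM in both, whereas their partners read 77.0 and 66.1 CPM (WT) and 87.7 and 68.9 CPM (USB1 mutants). In USB1 mutant library 1 the median deviation was 0.42 for 3p or unsided arms and 0.10 for 5p arms, with miR-520g-3p at 211 CPM against 84.4 and 73.2 CPM, while in WT library 1 it was 0.23 and 0.21. The within-group coefficient of variation of single arms ran from 8.65% (miR-526b-5p) through a median of 21.11% to 52.48% (miR-498-5p).

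Grouped by seed, the hESC output of C19MC was led by seeds that RefSeq gives to no human miRNA outside the cluster. UCUGGAG, the seed of miR-516b-5p, held 29.5% of C19MC counts (mean over 15 libraries, range 19.7 to 33.2%), and AGUGCUG, that of miR-512-3p, held 19.7% (15.1 to 23.1%). AAGUGCU, shared by miR-520a-3p to miR-520e-3p with miR-302a-3p to miR-302e, miR-372-3p and miR-373-3p, held 10.8% (8.96 to 14.7%). AAAGUGC, shared by miR-519d-3p and miR-526b-3p with miR-17-5p, miR-20a-5p, miR-20b-5p, miR-93-5p, miR-106a-5p and miR-106b-5p, held 0.833%.

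Set against those relatives, the C19MC arms were a minor source of either shared seed in hESCs. Per total count, the 5 AAGUGCU arms summed to a mean of 375 CPM over the hESC libraries. The non-members with that seed summed to 178472 to 397671 CPM in single libraries by this measure. Likewise per total count, the pair with AAAGUGC summed to a mean of 29.3 CPM, whereas its non-members summed to 8218 to 16181 CPM in single libraries. Of the other seeds, UCGUGCA (miR-517a-3p, miR-517b-3p and miR-517c-3p) held 8.14%, CAAAACU (miR-1323) 6.43%, UCUAGAG (10 5p arms) 3.97%, UCUUGAG (miR-526b-5p) 3.71%, AAAGCGC (5 arms, led by miR-518b) 3.53% and CAAAGUG (miR-520g-3p and miR-520h) 2.47%.

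The hairpins differed sharply in which arm they delivered. In miR-516b the 5p arm made up a median of 99.97% of the counts of both arms over 15 hESC libraries, while in miR-512 it made up 0.654% (0.450 to 2.13%). The miR-520 hairpins favored the 3p arm, with 5p shares of 14.04% (11.02 to 18.5%) for miR-520a, 12.7% (7.56 to 15.9%) for miR-520g, 9.01% for miR-520d, 10.5% for miR-520e and 2.67% for miR-520f. The hairpins of miR-526b (93.2%, 88.2 to 95.7%) and miR-498 (90.5%) favored the 5p arm.

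Of the 10 hairpins plotted, miR-518c had the widest range. Its 5p share had a median of 69.7% and a highest value of 79.5%, and USB1 mutant library 1 gave the lowest, 34.1%, apart from the other libraries. There the 5p arm read 26.6 CPM against 36.7 and 40.6 CPM in USB1 mutant libraries 2 and 3, while the 3p arm read 51.5 CPM against 21.97 and 18.6 CPM.

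**Figure D3:**
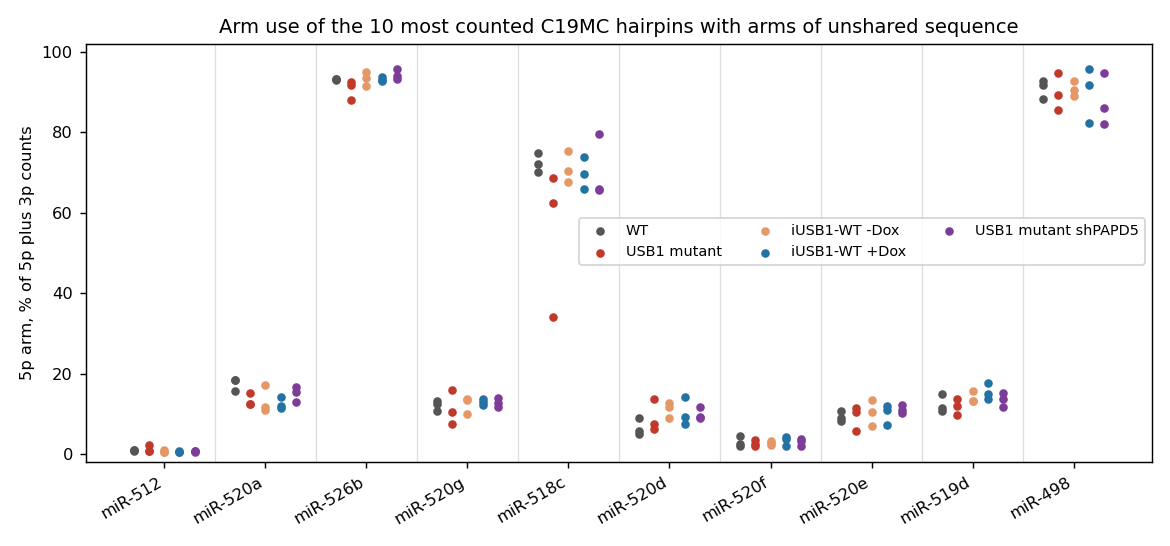
Share of the 5p arm in the counts of both arms (percent) for 10 C19MC hairpins whose arms share no sequence with another arm, 1 point per hESC library colored by group. The hairpins separate into 5p-dominant (miR-526b, miR-498, most libraries of miR-518c) and 3p-dominant ones, and USB1 mutant library 1 is the low point of miR-518c at 34.1%.

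Some arms cannot be counted apart. In 5 sets of arms, 15 arms in all, the members have the same mature sequence, and reads of such a set were spread over its names. In the 6-arm set of miR-519a-5p, the largest count was a median of 1.115 times the smallest within a library, and the median chi-squared over its degrees of freedom was 0.626, no more than random splitting gives. The 3-arm set of miR-518d-5p, miR-520c-5p and miR-526a-5p gave 1.126 times and 0.599. The pair of miR-517a-3p and miR-517b-3p differed by a median of 1.056 times and gave 2.502, more than an even random split gives. Because its members have 1 sequence, each set is taken as 1 measurement under several names, however its reads were split. In addition, 22 arms, some of them in these sets, lie within 1 mismatch of another sequence of the cluster, so that their counts are uncertain. Unless stated otherwise, a number of arms is a number of names, which such a set can enter more than once.

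Most C19MC arms showed no detected difference in level between USB1 mutant and WT hESCs. Of the 67 arms, 59 were abundant enough to test, and 1 of them, miR-516a-5p, fell in USB1 mutants against WT (edgeR quasi-likelihood with Benjamini-Hochberg adjustment over the 998 miRNAs tested). The share of all 998 that fell was 4.51%, and 7.41% were called in either direction. The arm read 71.3, 43.7 and 48.5 CPM in WT and 35.8, 31.2 and 31.2 CPM in USB1 mutants, so that the groups did not overlap. Its log2 change was -0.74 (SE 0.20, adjusted p = 0.0338), and without WT library 1, the highest, it was -0.51 with an adjusted p of 0.126.

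The other arms spread around no change, with 30 positive and 29 negative estimates and a median log2 change of 0.06 (0.04 over all tested miRNAs). In all, 4 arms lay above WT in every library and 3 below, against 14.3% and 11.5% of all tested miRNAs. Among the abundant arms, miR-516b-5p had a log2 change of -0.32 (adjusted p = 0.246), miR-512-3p of -0.16 (0.570), miR-520a-3p of 0.39 (0.191), miR-1283 of 0.54 (0.0946) and miR-520g-3p of 0.79 (0.118), all by edgeR and none of them called.

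The 5p and 3p arms leaned in opposite directions in this comparison, and USB1 mutant library 1 moved with the lean. Of 28 tested 5p arms 21 had a negative estimate (median -0.09), and of 31 3p or unsided arms 23 had a positive one (median 0.25). The negative 5p arms include every name of the 6-arm set of miR-519a-5p and of the 3-arm set of miR-518d-5p. They also include miR-519a-2-5p and miR-520b-5p, which share 1 sequence, so they are fewer measurements than arms. Without USB1 mutant library 1 the medians were -0.18 and 0.00, and without WT library 1 they were 0.03 and 0.42. The part of USB1 mutant library 1 in the lean was not tested beyond these values.

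The +Dox cells, in which the wild-type USB1 transgene is switched on, had the lowest C19MC levels. Against WT, 7 of 59 arms fell in +Dox and 0 rose, where 6.01% of all tested miRNAs fell and 8.22% were called in either direction. The 7 were miR-516a-5p, miR-517a-3p, miR-517b-3p, miR-518d-5p, miR-520d-3p, miR-522-3p and miR-526a-5p. As the sequences show, miR-517a-3p and miR-517b-3p are 1 measurement, and miR-518d-5p and miR-526a-5p are 1 measurement with miR-520c-5p, whose adjusted p was 0.0617. With identical sequences summed, 5 measurements were called, and the share of all miRNAs called in that fit was not computed.

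The arm of miR-517b-3p read 212, 163 and 161.5 CPM in WT and 131, 93.5 and 89.7 CPM in +Dox, a log2 change of -0.77 (SE 0.18, adjusted p = 0.0146 by edgeR). The arm of miR-522-3p read 82.6, 44.2 and 52.6 CPM in WT and 34.1, 28.9 and 35.5 CPM in +Dox, a log2 change of -0.87 (SE 0.22, adjusted p = 0.0209). Neither arm overlapped between these groups.

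The arm miR-520d-3p, which has the miR-302 seed, read 45.6, 33.3 and 36.5 CPM in WT and 29.1, 24.3 and 21.9 CPM in +Dox, a log2 change of -0.62 (SE 0.18, adjusted p = 0.0477 by edgeR). The arm of miR-516a-5p read 28.5, 25.9 and 29.4 CPM in +Dox, a log2 change of -0.97 (SE 0.21, adjusted p = 0.00820). The remaining changes were -0.67 for miR-517a-3p, -0.73 for miR-518d-5p and -0.80 for miR-526a-5p, with adjusted p of 0.0256, 0.0383 and 0.0222. All 7 arms were lower in each +Dox library than in each WT library.

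The lower level reached well beyond the called arms. Estimates were negative for 56 of 59 arms, with a median log2 change of -0.53 (0.03 over all tested miRNAs), and 33 arms lay below WT in every +Dox library, as 15.3% of all tested miRNAs did. The calls rested on single libraries: 1 arm (miR-516a-5p) was called without WT library 1 and 0 without +Dox library 2, where 5.54% and 2.39% of all tested miRNAs were called, while the median stayed at -0.37 and -0.49. DESeq2 called 17 arms (28.8%), the 7 among them, and 11.2% of all tested miRNAs.

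By their labels, +Dox and -Dox cells differ only in doxycycline, so this comparison asks most directly what induction changes. The RNA of USB1 itself was not measured in these libraries. No arm of 59 was called, as for 0% of all 998 tested miRNAs; 10 arms (16.9%) had an unadjusted edgeR p under 0.05, as did 4.51% of all tested miRNAs, and DESeq2 called 0 arms. Nevertheless 57 of 59 estimates were negative, with a median log2 change of -0.38 (0.01 over all tested miRNAs). In 28 arms every +Dox library lay below every -Dox library, as in 7.11% of all tested miRNAs, and in 0 arms every +Dox library lay above, as in 6.51%. The arms belong to an array that is transcribed together, were measured in the same libraries, and in part share sequences. Counts of arms in a direction, here and in the other comparisons, are therefore not counts of independent observations. Within that limit, the direction in +Dox against -Dox was shared by nearly the whole cluster, and no single arm reached the threshold.

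Single arms in this comparison had a log2 change of -0.37 (SE 0.17) for miR-516b-5p, -0.60 (0.28) for miR-1323, -0.31 (0.22) for miR-522-3p, -0.25 (0.18) for miR-520a-3p, -0.22 (0.18) for miR-517a-3p and -0.19 (0.16) for miR-512-3p. The adjusted p was 0.994 for each by edgeR. Over the 5 hESC groups, +Dox had the lowest mean in 53 of the 59 arms (89.8%), where 21.3% of all tested miRNAs had their lowest mean in +Dox. The highest mean was in USB1 mutants for 27 arms and in WT for 25.

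The -Dox cells differed from WT in 1 arm and from the USB1 mutants in none that passed the test. Against WT, the arm that fell in -Dox was again miR-516a-5p, with 33.1, 25.7 and 23.7 CPM and a log2 change of -0.99 (adjusted p = 0.0120 by edgeR). Among all tested miRNAs 3.41% fell and 4.31% were called in either direction. The median of the 59 arms was -0.14, and 44 estimates were negative. Against USB1 mutants, 0 of 59 arms were called in -Dox, with 0% of all miRNAs called (3 arms, or 5.08%, at an unadjusted edgeR p under 0.05 against 8.92% of all, and 0 arms by DESeq2), and the median log2 change was -0.19.

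Knockdown of PAPD5 in USB1 mutants gave no called C19MC arm. Against USB1 mutants, 0 of 59 arms and 0% of all miRNAs were called (8 arms, or 13.6%, at an unadjusted edgeR p under 0.05 against 11.6% of all, and 0 arms by DESeq2). The median was -0.22 (-0.03 over all tested miRNAs), and 7 arms lay below USB1 mutants in every library, as 7.21% of all tested miRNAs did. The leading arm miR-516b-5p had a log2 change of 0.33 (SE 0.17, adjusted p = 0.484) and miR-520a-3p of -0.38 (SE 0.18, adjusted p = 0.409), both by edgeR. Against WT, 0 arms and 0% of all miRNAs were called. At an unadjusted edgeR p under 0.05 there were 2 arms, or 3.39%, against 13% of all. DESeq2 called 1 arm, or 1.69%, against 2.61% of all. The median was -0.23, and 12 arms lay below WT in every library, as 10% of all tested miRNAs did. The comparisons with WT share its 3 libraries, so their directions are not independent.

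**Figure D4:**
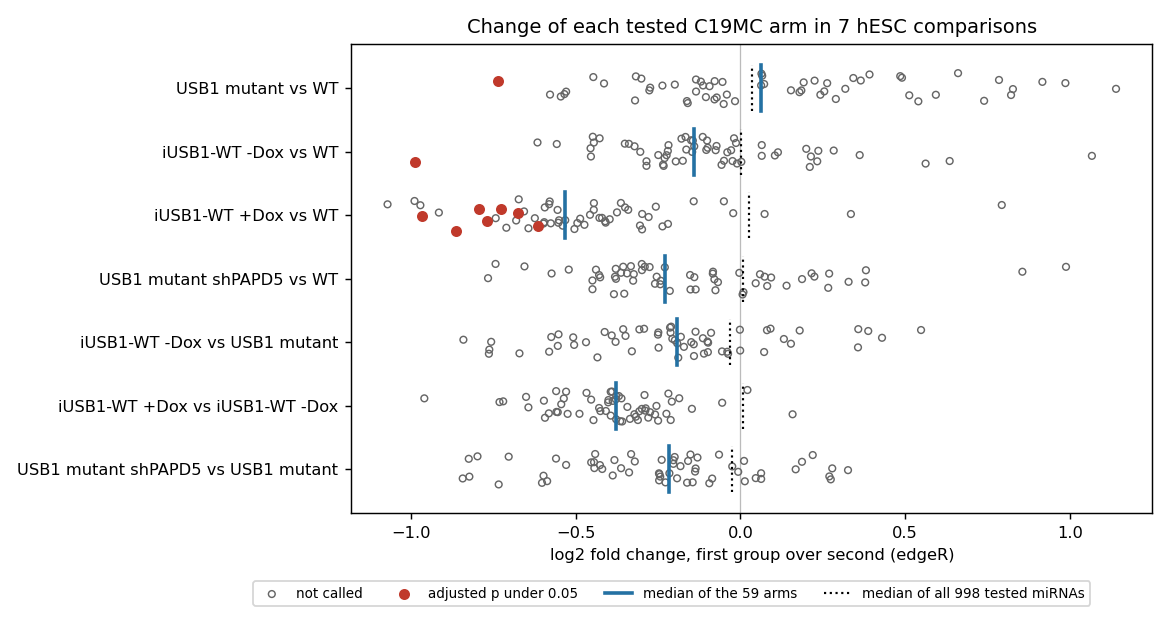
Log2 fold change of each of the 59 tested C19MC arms in 7 hESC comparisons (edgeR; 1 circle per arm, red where the adjusted p was under 0.05), with the median of the arms (blue bar) and of all 998 tested miRNAs (dotted line). The arms lie mostly left of 0 in +Dox against WT (median -0.53, 7 called) and against -Dox (median -0.38, 0 called), and on both sides of 0 in USB1 mutants against WT.

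Relatives of C19MC outside the cluster were compared in the same fits. Of the neighboring miR-371 cluster, 6 of 8 listed arms could be tested, and all 6 fell in USB1 mutants against WT (median log2 change -4.47) and in +Dox against WT (-5.89). In -Dox 3 of 6 fell, and in shPAPD5 cells 0 of 6. WT library 1 weighed on these values: miR-372-3p read 6180, 405 and 402 CPM in the WT libraries, and without library 1 the counts of fallen arms were 5 in USB1 mutants (median -1.78) and 5 in +Dox (-2.93). Against -Dox, 0 of the 6 were called in +Dox, with a median of -1.76.

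Of the 7 non-members with the AAGUGCU seed, 4 rose and 2 fell in USB1 mutants against WT. The 4 were miR-302a-3p to miR-302d-3p, with log2 changes of 0.57 to 1.07, and miR-302b-3p, for example, read 100354, 119725 and 118109 CPM in WT and 184416, 149581 and 168164 CPM in USB1 mutants. The arm of miR-302a-3p read 16620, 16961 and 15641 CPM in WT and 55610, 23930 and 23458 CPM in USB1 mutants, where library 1 was far above its partners. The 2 were miR-372-3p and miR-373-3p. These calls rested on single libraries: 0 rose and 2 fell without any 1 of the WT libraries, 0 rose and 0 fell without USB1 mutant library 1, 5 rose and 0 fell without library 2, and 4 rose and 0 fell without library 3. None of the 5 C19MC arms with that seed was called in this comparison, and 0 of the 6 non-members with the AAAGUGC seed were called in any hESC comparison.

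Over the 15 hESC libraries, the non-members whose log2 level most resembled that of the C19MC sum were miR-34b-3p (Pearson r 0.85, Spearman rho 0.76), miR-371a-3p (0.84 and 0.73), miR-372-3p (0.82 and 0.69), miR-371b-3p (0.82 and 0.68) and miR-184 (0.75 and 0.77). The median r was -0.06 over 357 non-members and 0.71 over 39 C19MC arms with a mean of at least 10 CPM, which are part of the sum. Without the libraries farthest from the median, WT library 1 and +Dox library 2, r was 0.71 for miR-34b-3p, 0.73 for miR-371a-3p and 0.58 for miR-184. These values describe libraries that share groups, depth and scaling.

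Between the lines, the C19MC arms were higher in hESCs. WT hESCs and Control K562 cells had 43 arms in the test, but only 7 would have passed the count filter on the Control K562 libraries alone. The other 36 entered through their hESC counts and had to be higher there, so the count of 43 of 43 called higher is a description only. Of all 894 tested miRNAs, 37.9% were called higher in hESCs and 70.4% in either direction. For the 7 the log2 difference ran from 5.13 to 8.57, all called higher in hESCs. Library totals in place of TMM shifted the median of all miRNAs by -1.199. Over all tested miRNAs 339 were higher and 290 lower in hESCs with TMM, and 214 and 486 with library totals. As a sum, C19MC was 3910 CPM of total counts in WT hESCs and 52.0 in Control K562 cells, a 75.2-fold difference (67.4-fold without WT library 1 and 96.7-fold without Control libraries 1 and 2). By the same measure the 4 marker arms of the miR-371 cluster were 209-fold higher in hESCs, or 31.6-fold without WT library 1 and 331-fold without Control libraries 1 and 2, while the miR-17-like non-members with the AAAGUGC seed were lower in hESCs, at 0.359 times their K562 level.

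The size of the difference varied between arms. Scaled across the lines, miR-516b-5p read 1816, 1638 and 1821 CPM in WT hESCs and 5.58, 4.85 and 5.93 CPM in Control K562 cells, a log2 difference of 8.33 (SE 0.20, adjusted p = 1.82e-07 by edgeR). The arm of miR-520a-3p read 227, 230.1 and 192 CPM in WT hESCs and 7.20, 6.24 and 5.05 CPM in Control K562 cells, a difference of 5.13 (SE 0.23, adjusted p = 1.28e-06). Over all groups miR-520a-3p held 15.9% of pooled C19MC counts in K562 and 4.55% in hESCs. Its share ran from 12.9 to 19.5% over the K562 libraries and from 3.36 to 5.599% over the hESC libraries, without overlap.

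The miR-302 cluster counts of Control K562 libraries 1 and 2 moved with these values, and their part in the result was not tested. They amounted to 0.414 and 0.439% of the WT hESC level, and the same percentage of the WT C19MC level would be 16.2 and 17.2 CPM of total counts, against 57.5 and 58.1 CPM measured. Control library 3 held 0.189 CPM of the miR-302 cluster and 40.4 CPM of C19MC. The Control_shPARN table lists 0 of the 5 marker arms of that cluster, and its libraries held 56.2 to 61.7 CPM of C19MC. Because the deposited tables leave out miRNAs without a count in their first column, the unlisted arms are at 0 in Control_shPARN library 1 and unknown in libraries 2 and 3.

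**Figure D5:**
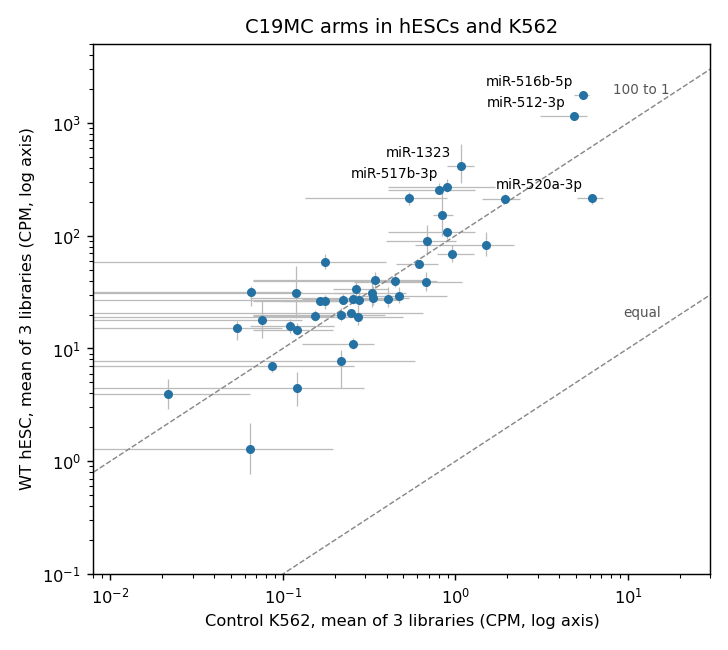
Level of each tested C19MC arm in WT hESCs (vertical) and Control K562 cells (horizontal), as the mean of 3 libraries on log axes in CPM scaled across both lines, with lines from the lowest to the highest library and dashed lines for equal levels and for a ratio of 100 to 1. The arms lie above the line of equality, most of them having entered the test through their hESC counts, and miR-520a-3p lies to the right of arms with a like hESC level.

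C19MC was sparse in K562. It held 0.00520% ± 0.001001 of miRNA counts in Control, 0.00423% ± 0.000938 in USB1 KO, 0.00587% ± 0.000277 in Control_shPARN and 0.00601% ± 0.00354 in USB1 KO_shPARN cells. The scaled sums were 52.4, 51.9 and 40.8 CPM in Control, 52.6, 36.6 and 26.7 in USB1 KO, 62.8, 71.4 and 63.3 in Control_shPARN and 99.8, 77.9 and 20.3 in USB1 KO_shPARN cells. The Control_shPARN libraries lay above all Control and USB1 KO libraries on this scale. Per total count (56.2 to 61.7 CPM) they overlapped Control (40.4 to 58.1 CPM) but not USB1 KO (35.9 to 53.1 CPM). By both measures USB1 KO_shPARN libraries 1 and 2 lay above, and library 3 below, all libraries of the other K562 groups.

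By mean level, the leading arms were miR-516b-5p (9.85 CPM), miR-520a-3p (8.69), miR-512-3p (7.28), miR-520c-3p (2.86), miR-1323 (2.14), miR-526b-5p (1.81), miR-520g-3p (1.78) and miR-517b-3p (1.39). The counts behind these levels were few. The leading arm miR-516b-5p had 86, 49 and 88 counts in Control, 93, 86 and 8 in USB1 KO, 100, 97 and 86 in Control_shPARN and 213, 138 and 27 in USB1 KO_shPARN libraries. The low values belong to USB1 KO library 3, the shallowest, and to USB1 KO_shPARN library 3.

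With these counts no C19MC difference was detected between K562 groups. Only 16 arms could be tested, and 0 of 16 were called in each of the 4 comparisons, where the share called among all 881 miRNAs was 5.11% for USB1 KO against Control, 1.48% for Control_shPARN against Control, 14.8% for USB1 KO_shPARN against USB1 KO and 9.19% for USB1 KO_shPARN against Control_shPARN. At an unadjusted edgeR p under 0.05 there were 3, 2, 1 and 0 arms (18.8, 12.5, 6.25 and 0%, against 17.6, 13.4, 27 and 27.2% of all tested miRNAs), and DESeq2 called 0 arms in each. The median log2 change of the 16 arms was -0.13, 0.46, 0.32 and -0.19 in that order (-0.02, -0.03, 0.11 and 0.02 over all tested miRNAs).

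For USB1 KO against Control, the log2 change was -0.02 (SE 0.52, adjusted p = 0.984 by edgeR) for miR-516b-5p, -0.68 (SE 0.44, adjusted p = 0.419) for miR-520a-3p and -0.66 (SE 0.48, adjusted p = 0.490) for miR-512-3p. Without Control libraries 1 and 2 these were -0.14, -0.40 and -0.02. For USB1 KO_shPARN against USB1 KO, the change was 0.96 (SE 0.52, adjusted p = 0.255) for miR-516b-5p, 1.01 (SE 0.44, adjusted p = 0.152) for miR-520a-3p and 0.99 (SE 0.48, adjusted p = 0.200) for miR-512-3p. Without USB1 KO_shPARN library 3, which held 20.3 CPM of C19MC against 99.8 and 77.9 in its partners, 3 of 18 tested arms were called there and 1 in USB1 KO_shPARN against Control_shPARN, where 15.2% and 10.1% of all tested miRNAs were called. Each of the standard errors in K562 exceeded those of the same arms in hESCs.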

How the data were processed

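Small RNA from 27 libraries (15 of H1 hESCs and 12 of K562, 9 groups of 3) was analysed as mature miRNA arms. The deposited values are raw counts, not normalized. The authors isolated RNA with Trizol, prepared libraries with a Lexogen small RNA kit and sequenced them on a NovaSeq. Per the labels' processing notes they used cutadapt 2.5, Bowtie2 2.2.9, SAMtools 1.3.1 and DESeq2, and reads were aligned to human miRBase without mismatch in the alignment seed, so that identical arms share reads. A table omits any miRNA without a count in its first column. Adaptor entries (0.00478 to 0.0179% of counts in hESCs, 0.0104 to 0.206% in K562) were removed, and 0 value columns were left out.

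miRNAs listed in every table of a line were filtered with filterByExpr (minimum count 10, minimum total 15), which left 998 in hESCs, 881 in K562 and 894 between lines. All groups of a line entered 1 edgeR 4.0.16 quasi-likelihood fit with TMM and robust dispersion in R 4.3.3. The 6 WT and Control libraries were fitted for the comparison of lines. Calls needed an adjusted p (Benjamini-Hochberg, over all miRNAs tested) under 0.05. The 12 comparisons were 7 in hESCs, 4 in K562 and 1 between lines. DESeq2 1.42.0 was an alternative tool, and the fits were tried on simulated data. The simulation held no outlying libraries, so it cannot judge calls that rest on single libraries.

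The members, lists and rules were chosen with earlier results of these data known. Named arms were the 12 most abundant in hESCs, each called arm (at most 8 per comparison), the 8 most abundant in K562, the sets of identical sequence, the arms of the 5 most counted hairpins, and outside C19MC the 5 closest patterns and the miR-302 and miR-371 clusters. Other named arms (miR-498-5p, both arms of miR-518c, and hairpins named for arm use) were chosen after their values were seen. Sequences are from RefSeq, and levels are mean ± SD of 3 libraries. Replicate numbers were taken to pair samples only between Control_shPARN and USB1 KO_shPARN, where the deviations of same-numbered libraries correlated at 0.169 to 0.348. Control K562 columns carry no number, and its libraries are numbered in column order.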

Additional observations from a re-analysis of the deposited data

How the results depend on the processing

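Called arms depended on the processing, and a count given here without a share of all miRNAs describes that setting only. In USB1 mutants against WT the count of called arms was 0 with library totals, 2 with a minimum of 10 CPM in 3 libraries, 0 with only the 2 groups fitted, and 0 to 2 with a library left out. In -Dox against WT it was 0 with only the 2 groups fitted and 0 to 1 with a library left out. In +Dox against WT it was 4 with library totals, where 22 of all 998 tested miRNAs rose and 49 fell. With TMM computed without C19MC it was 11, where 17 of all rose and 72 fell. It was 17 with DESeq2 and 0 to 6 with a library left out. By library left out, it was 1 without WT library 1, 4 without WT library 2, and 3, 0 and 2 without +Dox libraries 1, 2 and 3. In shPAPD5 cells against WT DESeq2 called 1 (1.69%), and 2.61% of all tested miRNAs. In K562 the count was 0 to 3 for USB1 KO_shPARN against USB1 KO and 0 to 1 for USB1 KO_shPARN against Control_shPARN with a library left out, the highest without USB1 KO_shPARN library 3. The change of miR-516b-5p in USB1 KO against Control turned sign with relative log expression scaling (0.0054), with only the 2 groups fitted (0.023), without Control library 3 (0.063) and without USB1 KO library 3 (0.23), and ran from -0.24 to 0.23 with a library left out. The median log2 change of the arms in USB1 mutants against WT, 0.06, turned sign with library totals (-0.0017), with a minimum of 10 CPM (-0.059), with only the 2 groups fitted (-0.025), and without WT library 2 (-0.063), WT library 3 (-0.12) or USB1 mutant library 1 (-0.15). Other medians that turned sign were those of -Dox against WT without WT library 1 (0.0015), shPAPD5 cells against USB1 mutants without USB1 mutant library 1 (0.0051), USB1 KO against Control with only the 2 groups fitted (0.022), without Control libraries 1 and 2 (0.059) or without USB1 KO library 3 (0.097), and USB1 KO_shPARN against Control_shPARN with a minimum of 10 CPM (0.19) or without USB1 KO_shPARN library 3 (0.23). The share in Control_shPARN was 0.00553% over arms listed in all tables. The cause was not tested. With library totals the median of all miRNAs shifted by over 0.1 in 4 of the comparisons within a line. The shifts were 0.10 in -Dox and 0.16 in shPAPD5 cells against USB1 mutants. They were -0.26 in Control_shPARN against Control and -0.24 in USB1 KO_shPARN against USB1 KO. The median of the arms there was -0.11, -0.07, 0.19 and 0.13.

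With the replicate block, the counts of called arms in the 7 hESC comparisons were 1, 1, 7, 0, 0, 0 and 0, as without it. For the paired libraries of Control_shPARN and USB1 KO_shPARN, the block over the 9 numbered K562 libraries gave 0 called arms, and the same libraries without the block gave 0. No paired analysis was possible for comparisons with Control K562 because its columns carry no number. Leaving out Control K562 libraries 1 and 2, the block over 9 libraries, and the folds between the lines and calls of seed relatives with libraries left out were chosen after seeing the data. The few C19MC counts limit K562, where most arms could not be tested.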
